A study of Mus musculus with 8 samples.

Results

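Liver RNA of mice given sudachitin was compared with that of vehicle-treated mice at ZT18, with 2 livers in each group. These 4 libraries, chosen by the treatment and time in their labels, are among the 8 of the series. ZT counts hours from lights on, so ZT18 lies in the dark phase, when mice are awake and feed. All mice were male C57BL/6J animals bought at 4 weeks of age, later given free access to a diet with 45% of its calories as fat, and gavaged every other day between ZT8 and ZT10. Their livers were taken at 30 weeks. The control mice thus also ate the high-fat diet and were also gavaged, with PBS, in a cohort of 11. The sudachitin mice received 100 mg per kg of body weight, in a cohort of 12. How long before collection the last dose was given is not known here. The other 4 libraries came from 2 control and 2 sudachitin livers at ZT6, in the light phase. They entered the estimate of the spread and the comparison of the treatment difference between the times.

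Sudachitin is a polymethoxyflavone from the peel of the sudachi citrus fruit. In mouse liver the night meal brings insulin, which raises SREBP1c and with it the enzymes that make fatty acids, and which lowers Irs2, Igfbp1 and Pck1. Feeding also loads the endoplasmic reticulum with newly made secretory protein, to which XBP1 and its chaperone targets respond. Pulses of growth hormone act on the male liver through STAT5 and set genes that differ between the sexes, and corticosterone peaks around the onset of the active phase.

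Exon counts came to 17759630.5 and 14440239.5 in the control livers and to 17483095 and 16913365 in the sudachitin livers, and 14506 of 55421 transcripts had enough counts to be tested. Summed levels of 15 hepatocyte-defining genes such as Alb and Apoa1 lay between 105030 and 113902 CPM in the 4 livers, where CPM are counts scaled to a common library total, so hepatocyte markers were abundant in every liver. Control replicate 1 stood apart. It held the highest or lowest value of all 8 libraries for 38.2% of tested transcripts, against 17.4% to 27.7% for any other library. Its median absolute log2 difference was 0.27 from control replicate 2, 0.25 from sudachitin replicate 1 and 0.29 from sudachitin replicate 2. Control replicate 2 differed less from the sudachitin livers, by 0.19 from each, and the sudachitin livers differed by 0.22 from each other. Genes whose groups did not overlap, and the gene lists, are therefore described against both controls and against control replicate 2 alone, by the value there or by whether they held. A difference is said to hold against control replicate 2 when both sudachitin values lie on the same side of that library and at least 0.5 of the log2 difference remains. These are whole-tissue libraries, in which fewer cells of a type and less RNA per cell cannot be told apart.

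Transcripts were tested with the quasi-likelihood test of edgeR, and p-values were adjusted by the Benjamini-Hochberg method over all tested transcripts. With an adjusted p under 0.05 as the threshold, 2 transcripts rose (0.0138% of those tested) and 0 fell (0.0%). At an unadjusted p under 0.05 there were 945 (6.51%), of which 500 were higher (3.45%) and 445 lower (3.07%). Of these 945, 786 held against control replicate 2. With control replicate 1 left out, 2 transcripts again passed, both higher (0.0138%). With control replicate 2 left out, 85 passed as higher (0.586%) and 90 as lower (0.62%), and only 36 of those 175 held against control replicate 2, while 39 had the opposite sign there. DESeq2 called 46 transcripts, 34 higher (0.234%) and 12 lower (0.0827%), and all 46 held against control replicate 2. Of all tested transcripts 43.3% held, and of the 4471 whose groups did not overlap 81.8% did. The groups of all 46 were apart, and holding uses the same livers as the calls. It is therefore no independent check of a call. With 2 livers on each side no exact permutation test of one gene can give a two-sided p below 0.333. The labels name separate mice, so the p-values measure the spread between these animals.

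**Figure D1:**
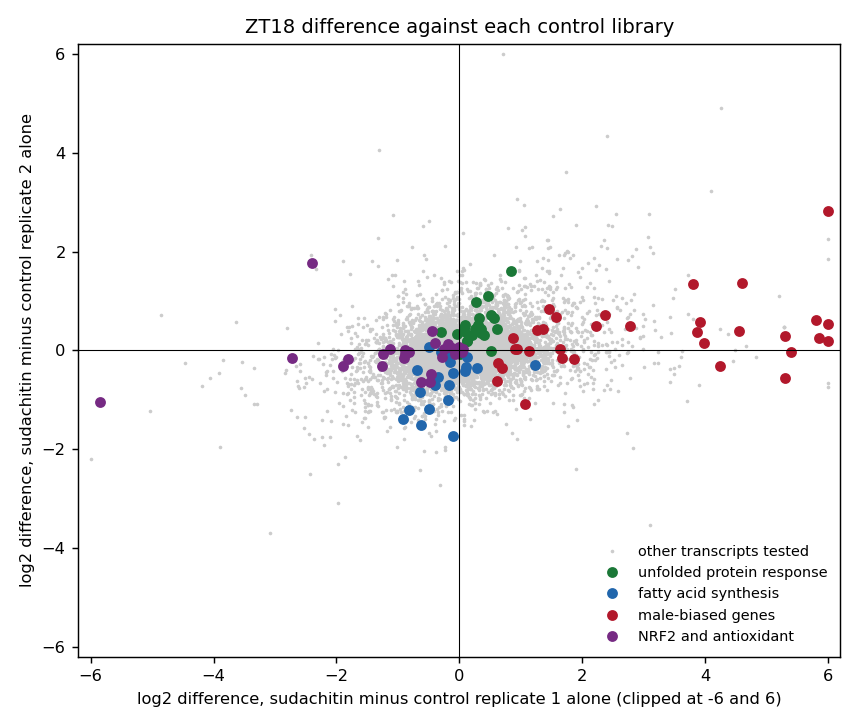
Each point is a tested transcript, placed by its log2 difference between the sudachitin livers and control replicate 1 alone (horizontal) or control replicate 2 alone (vertical) at ZT18, with values past 6 in size drawn at 6 and 4 gene lists coloured. Male-biased genes stretch far to the right yet lie near the horizontal line, and genes of the unfolded protein response lie mostly above it, with those of fatty acid synthesis mostly below.

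The passing transcripts belong to the ribosomal DNA unit on mouse chromosome 17, which in the annotation is covered by Gm42418 (chr17:39846958-39848788, forward strand, GRCm38). Gm42418 measured 2384 and 2040 CPM in the control livers and 7764 and 8407 CPM in the sudachitin livers. The groups did not overlap, and the log2 difference was 1.87 (SE 0.17, edgeR adjusted p = 0.017), or 3.66-fold. Against control replicate 2 alone it was 1.99 (adjusted p = 0.035). AY036118 (chr17:39847113-39848035, reverse strand) lies wholly within Gm42418 on the opposite strand, so in these unstranded libraries the reads of the pair cannot be told apart. It measured 2102 and 1764 CPM against 6836 and 7372 CPM, a log2 difference of 1.88 (SE 0.17, adjusted p = 0.017) and of 2.01 against control replicate 2. Both calls were lost when either sudachitin ZT18 liver (adjusted p = 0.11 and 0.16) or either control ZT6 liver (0.087 and 0.088) was left out, and when only the 4 ZT18 livers were fitted (0.24). Together these transcripts took 0.449% and 0.380% of the counts in control and 1.46% and 1.58% in sudachitin livers.

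Of 10 symbols in the list of ribosomal DNA unit and abundant noncoding transcripts, 7 could be tested. In all 7 both sudachitin livers lay above both controls, where 15.3% of all tested transcripts did so. Of the 7, 6 held against control replicate 2 (12.9% of all). Gm42418 shares bases with both AY036118 and CT010467.1, so the 7 are not separate measurements and their count adds no support. CT010467.1, which shares 675 bases with Gm42418 on the other strand, measured 41.7 and 56.5 CPM against 140 and 146 CPM (log2 1.55, adjusted p = 0.37, 1.34 against control replicate 2). Lars2, the mitochondrial leucyl-tRNA synthetase gene on chromosome 9, measured 388 and 318 CPM against 888 and 943 CPM (log2 1.38, SE 0.18, adjusted p = 0.17, and 1e-09 in DESeq2), with 1.52 against control replicate 2. Gm26917 did not hold, at 29.8 and 70.5 CPM against 92.3 and 91.0 CPM, with 0.87 and 0.38. The libraries were made from poly(A)-selected RNA, and the share of ribosomal reads that such selection leaves in a library was not measured here. At ZT6 the log2 differences were 1.47 for Gm42418, 1.47 for AY036118, 1.04 for CT010467.1 and 1.28 for Lars2. For Gm42418 the difference between the times was 0.40 (SE 0.23, edgeR adjusted p = 0.998).

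Apart from these, no single gene passed. The leading genes are described by their values. Adck5, which encodes a predicted atypical kinase, had 12.9 and 13.2 CPM in control and 25.8 and 25.6 CPM in sudachitin livers. Its log2 difference was 0.97 (SE 0.13, adjusted p = 0.17) and 0.96 against control replicate 2 alone. Mcm10, a DNA replication factor, had 24.7 and 30.3 against 57.0 and 55.1 CPM (log2 1.03, SE 0.15, adjusted p = 0.21). Arhgef26, a guanine nucleotide exchange factor, had 20.4 and 20.5 against 37.2 and 32.8 CPM (log2 0.77, SE 0.11, adjusted p = 0.21). In these genes the 2 mice of a group lay close together and the groups far apart. Rapgef4, the cAMP-activated exchange factor EPAC2, had 45.6 and 45.8 against 72.8 and 90.9 CPM (log2 0.84, adjusted p = 0.30). Pim3, a serine/threonine kinase, had 30.4 and 25.2 against 56.5 and 48.6 CPM (log2 0.92, adjusted p = 0.37). Keg1, an acyltransferase-like gene, had 69.1 and 106 against 165 and 213 CPM (log2 1.11, adjusted p = 0.39). Each held against control replicate 2, with log2 differences of 0.89 for Mcm10, 0.77 for Arhgef26, 0.84 for Rapgef4, 1.06 for Pim3 and 0.84 for Keg1. DESeq2 called all 6, and exons of Adck5, Arhgef26, Rapgef4 and Keg1 overlap genes on the other strand.

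Among the lower genes, Nfe2l2, which encodes the antioxidant regulator NRF2, had 105 CPM in both controls against 64.1 and 71.1 CPM. Its log2 difference was -0.63 (SE 0.11, adjusted p = 0.39, DESeq2 adjusted p = 0.042) and the same against either control alone. Gpd2, the mitochondrial glycerol-3-phosphate dehydrogenase, had 68.7 and 55.6 against 37.1 and 39.1 CPM (log2 -0.71, adjusted p = 0.39). Sh3pxd2a, a podosome scaffold, had 61.8 and 77.0 against 41.7 and 43.1 CPM (log2 -0.71, adjusted p = 0.42). Both held against control replicate 2, at -0.54 and -0.86. Rcan1, an inhibitor of calcineurin, had 41.3 and 34.1 against 25.2 and 19.3 CPM (log2 -0.76, and -0.61 against control replicate 2). The glutathione transferase gene Gstp3 had 25.6 and 27.4 against 16.4 and 14.8 CPM, and Gstt3 had 102 and 88.3 against 64.2 and 48.4 CPM. Their log2 differences were -0.76 and -0.75, and against control replicate 2 they were -0.81 and -0.65. Dusp6, an ERK phosphatase, had 70.9 and 62.7 against 25.4 and 40.4 CPM (log2 -1.02, -0.93 against control replicate 2, edgeR adjusted p = 0.53, DESeq2 adjusted p = 0.012). Tubb2a, a beta-tubulin, had 368 and 162 against 74.8 and 106 CPM, so that its log2 difference of -1.55 came to -0.84 against control replicate 2. In all of these the control and sudachitin values did not overlap.

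**Figure D2:**
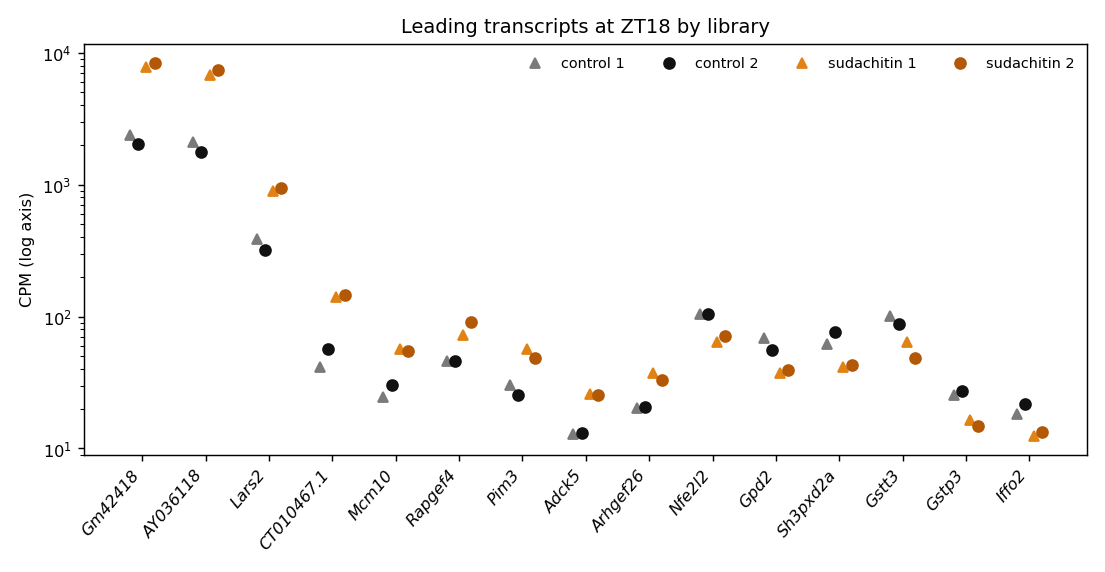
Levels in CPM on a log axis in the 4 ZT18 livers for the ribosomal DNA unit transcripts, Lars2 and the leading higher and lower genes. Gm42418 and AY036118 lie at or above 6836 CPM in both sudachitin livers and at or below 2384 CPM in both controls, and for each other gene shown the groups are also apart.

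The unfolded protein response raises chaperones, disulfide isomerases and export machinery when unfolded protein builds up in the endoplasmic reticulum. Of 25 tested genes of this response, 17 were higher in both sudachitin livers than in both controls, 0 were lower, and all 17 held against control replicate 2, where 15.3% of all tested transcripts were higher without overlap and 12.9% were so and held. No member passed the adjusted threshold, and 8 had an unadjusted p under 0.05 in edgeR, all of them higher (3.45% of all tested transcripts). The median log2 difference was 0.34, and 0.43 against control replicate 2 alone, beside -0.00 and 0.01 over all tested transcripts. Xbp1, the transcription factor of this response, had 93.9 and 88.0 CPM in control and 130 and 148 CPM in sudachitin livers (log2 0.61, SE 0.13, edgeR adjusted p = 0.51, 0.66 against control replicate 2). Hspa5, the chaperone BiP, had 531 and 417 against 598 and 723 CPM (log2 0.48, adjusted p = 0.75, 0.66 against control replicate 2). The co-chaperone gene Sdf2l1 had 8.76 and 5.13 against 12.7 and 18.8 CPM (log2 1.17, adjusted p = 0.72, 1.62 against control replicate 2).

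The disulfide isomerase genes Pdia3 (312 and 295 against 369 and 424 CPM) and Pdia6 (158 and 137 against 173 and 216 CPM) had log2 differences of 0.39 and 0.40, and of 0.43 and 0.50 against control replicate 2. Hsp90b1, the chaperone GRP94, had 473 and 417 against 542 and 587 CPM, and the lectin chaperone gene Calr had 473 and 472 against 541 and 660 CPM. Hyou1, a nucleotide exchange factor for BiP, had 94.4 and 82.5 against 106 and 164 CPM, and Sec61a1, the channel subunit of the translocon, had 102 and 109 against 118 and 151 CPM. The log2 difference from control replicate 2 was 0.44 for Hsp90b1, 0.35 for Calr, 0.71 for Hyou1 and 0.30 for Sec61a1. The values of sudachitin replicate 2 were the higher ones in each of these. The sensors stood differently: Ern1 (IRE1) had 56.9 and 81.9 against 63.4 and 99.4 CPM, and Atf6 had 66.8 and 64.0 against 70.8 and 62.5 CPM, with overlapping groups. Dnajb9, a further target of XBP1, also overlapped and had a log2 difference of -0.01. Pdia5, a disulfide isomerase that is no member of the list and was singled out from the DESeq2 calls, had 28.8 and 43.1 against 67.3 and 64.8 CPM (log2 0.88, 0.62 against control replicate 2, edgeR adjusted p = 0.51, DESeq2 adjusted p = 0.015).

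The endoplasmic reticulum stress response element, through which ATF6 and XBP1 act together with NF-Y, reads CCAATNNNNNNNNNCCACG. It was searched on both strands of RefSeq promoters of GRCm38.p6, from 250 bases before to 50 after the gene start. Of the 25 members 20 had a promoter there, and 8 of these held the element, against 39 of 32851 promoters in all (0.119%). The list contains textbook targets of this element, so the share describes the list and not the treatment. Among the 8 are Hspa5, Creld2, Syvn1, Hsp90b1, Calr and Pdia6, while Xbp1, Pdia3 and Sdf2l1 held no match to these letters in this window. The 250 bases before the start are shown for the members with a match, groups apart and the smallest p, since their values are described above. Capitals mark the fixed bases of the element. The Hsp90b1 promoter (chr10:86705445-86705694, reverse strand) has a match starting 212 and another starting 107 bases before the gene start, that of Calr (chr8:84846932-84847181, reverse strand) one at 162, and that of Pdia6 (chr12:17266339-17266588, forward strand) one at 98.
Hsp90b1: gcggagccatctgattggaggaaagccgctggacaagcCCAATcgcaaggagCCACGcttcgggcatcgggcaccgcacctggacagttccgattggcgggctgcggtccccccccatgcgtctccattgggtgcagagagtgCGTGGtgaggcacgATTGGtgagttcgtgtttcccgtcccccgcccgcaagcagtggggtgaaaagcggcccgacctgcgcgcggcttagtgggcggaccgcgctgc
Calr: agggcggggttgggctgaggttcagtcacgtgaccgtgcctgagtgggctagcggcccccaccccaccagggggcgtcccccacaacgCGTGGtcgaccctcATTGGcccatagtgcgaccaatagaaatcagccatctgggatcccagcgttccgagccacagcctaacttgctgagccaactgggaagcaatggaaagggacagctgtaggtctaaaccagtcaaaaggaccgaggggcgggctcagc
Pdia6: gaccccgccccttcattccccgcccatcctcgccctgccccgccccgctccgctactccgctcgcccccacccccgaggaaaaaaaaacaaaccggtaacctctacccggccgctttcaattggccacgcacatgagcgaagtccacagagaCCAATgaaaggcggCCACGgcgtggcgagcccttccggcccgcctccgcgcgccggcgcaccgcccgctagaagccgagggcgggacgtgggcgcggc

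Genes of the integrated stress response, the ATF4 branch, did not share a direction. Of 18 tested, 4 were higher and 2 lower without overlap, near the 15.3% and 15.5% of all tested transcripts, and 3 and 2 held (12.9% and 12.3% of all). Chac1, a glutathione-degrading enzyme, had 2.12 and 0.913 against 9.07 and 4.23 CPM (log2 2.09, 2.85 against control replicate 2, edgeR adjusted p = 0.69, DESeq2 adjusted p = 0.039). Cebpb, a transcription factor of liver metabolism and the acute phase, had 97.1 and 90.1 against 145 and 143 CPM (log2 0.62, 0.68 against control replicate 2). The lipoprotein receptor gene Vldlr went the other way, with 6.86 and 3.51 against 1.78 and 0.587 CPM (log2 -2.14, -1.57 against control replicate 2, edgeR adjusted p = 0.59, DESeq2 adjusted p = 0.039). Atf4 itself had 73.9 and 98.4 against 89.8 and 103 CPM, and Trib3 had 3.12 and 1.97 against 2.61 and 2.29 CPM, both with overlapping groups.

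Of 21 genes of fatty acid synthesis, 20 had a log2 difference below 0 with both controls, and 20 with control replicate 2 alone. Among all 14506 tested transcripts, 7310 lay below 0 with both controls. Without overlap 0 were higher and 9 lower, and all 9 held against control replicate 2. Over all tested transcripts 15.5% were lower without overlap and 12.3% also held. The median log2 difference was -0.45, and -0.46 against control replicate 2 alone. No member passed in edgeR. Srebf1, which encodes SREBP1, had 467 and 610 CPM in control and 237 and 291 CPM in sudachitin livers (log2 -1.03, SE 0.31, edgeR adjusted p = 0.71, DESeq2 adjusted p = 0.039). Against control replicate 2 it was -1.21. Fasn, the fatty acid synthase, had 2549 and 3541 against 692 and 2014 CPM (log2 -1.17, adjusted p = 0.72, -1.39 against control replicate 2). Acaca, which makes malonyl-CoA, had 279 and 346 against 172 and 254 CPM, and the elongase gene Elovl6 had 522 and 843 against 279 and 465 CPM. Mid1ip1, an activator of acetyl-CoA carboxylase, had 85.3 and 157 against 44.1 and 66.3 CPM, and the desaturase gene Scd1 had 26004 and 30136 against 20975 and 12545 CPM. Against control replicate 2 these 4 gave -0.70 for Acaca, -1.18 for Elovl6, -1.51 for Mid1ip1 and -0.85 for Scd1. Apart from Scd1, sudachitin replicate 1 was the lowest liver in each of the genes named.

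The 1 member above 0 was Mlxipl, which encodes the glucose sensor ChREBP, at 150 and 430 against 215 and 490 CPM (log2 0.28, -0.29 against control replicate 2), with overlapping groups. Its target Pklr had 722 and 1121 against 635 and 1127 CPM (log2 -0.06, -0.35 against control replicate 2), and Acly, the citrate lyase, had 757 and 1349 against 453 and 884 CPM (log2 -0.66, -1.01 against control replicate 2). Both also overlapped. Of 17 genes of glycerolipid synthesis, 2 were higher and 6 lower without overlap (15.3% and 15.5% of all tested transcripts), of which 1 and 3 held (12.9% and 12.3% of all). The median of -0.21 came to -0.01 against control replicate 2, and control replicate 1 was the highest liver for 11 (32.2% of all tested transcripts). Gpam, which adds the first acyl chain to glycerol-3-phosphate, had 632 and 587 against 259 and 426 CPM (log2 -0.83, -0.78 against control replicate 2, edgeR adjusted p = 0.65, DESeq2 adjusted p = 0.039). Acsl3, a long-chain acyl-CoA synthetase in no list, had 45.3 and 52.8 against 27.8 and 36.2 CPM (log2 -0.62, -0.72 against control replicate 2). Lpin1 and Lpin2, phosphatidate phosphatases, were the list's 2 genes higher without overlap, at 48.1 and 85.7 against 120 and 95.5 CPM and at 253 and 175 against 275 and 306 CPM, and only Lpin2 held (0.73 against control replicate 2, and 0.33 for Lpin1). Of 25 genes of cholesterol synthesis 2 were higher and 2 lower without overlap, a smaller share than among all tested transcripts, and 1 of each held (12.9% and 12.3% of all).

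**Figure D3:**
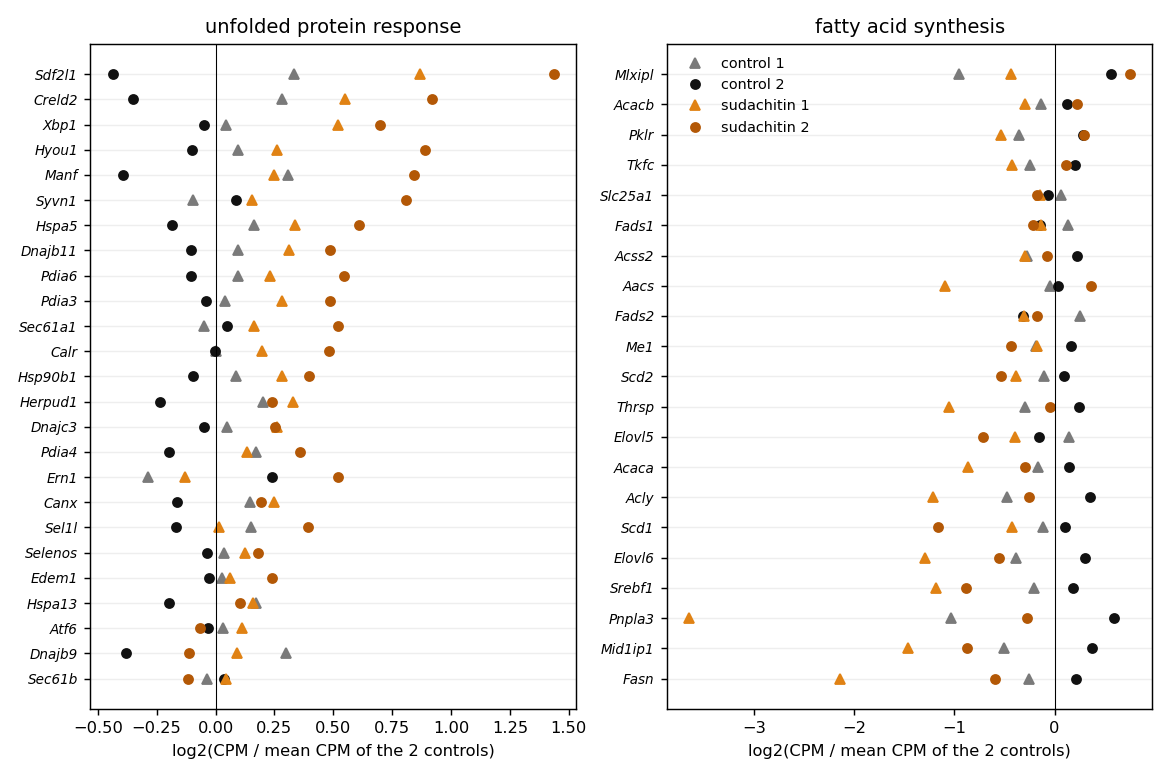
The log2 ratio of each ZT18 liver to the mean of the 2 controls is shown for every tested member of the unfolded protein response (left) and of fatty acid synthesis (right). For 17 of 25 genes on the left both sudachitin livers lie to the right of both controls, and for 9 of 21 on the right they lie to the left of both.

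The insulin signalling list mixes components of the pathway with genes that insulin lowers, so its count and median have no single direction of response. Of its 20 tested genes, 8 were higher (15.3% of all tested transcripts) and 1 lower without overlap, and 7 of the 8 held against control replicate 2 (12.9% of all). Their log2 differences had a median of 0.24, and of 0.21 against control replicate 2 alone. Irs2, an insulin receptor substrate, had 15.8 and 15 CPM in control and 40.9 and 25.1 CPM in sudachitin livers (log2 1.10, SE 0.21, edgeR adjusted p = 0.39, DESeq2 adjusted p = 0.0093). It was 1.13 against control replicate 2 alone. Igfbp1, an IGF-binding protein made in fasting, had 54.1 and 16.8 against 126 and 61.2 CPM (log2 1.39, 2.48 against control replicate 2, 0.78 without sudachitin replicate 1). Txnip, an inhibitor of glucose uptake, had 57.6 and 49.2 against 89.6 and 70.6 CPM (log2 0.58, adjusted p = 0.71, 0.70 against control replicate 2). Its exons share 603 bases with Gm15441 on the other strand, so some of these reads may belong to that gene. Socs3, a feedback inhibitor of cytokine and insulin signalling, had 3.01 and 2.25 against 7.59 and 4.87 CPM (log2 1.23, adjusted p = 0.53, 1.47 against control replicate 2). The receptor gene Insr had 124 and 115 against 131 and 132 CPM, and Irs1 was the gene lower without overlap, at 26.3 and 32.7 against 26.0 and 24.8 CPM, and both held.

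Of 18 genes of glucose production, 9 had a log2 difference above 0 and 9 below, with a median of -0.01. Without overlap 3 were higher and 2 lower, near the shares among all tested transcripts, and all 5 held (12.9% higher and 12.3% lower of all). Pck1, the cytosolic PEP carboxykinase, had 855 and 934 against 2429 and 1103 CPM (log2 0.98, SE 0.33, adjusted p = 0.72, 0.92 against control replicate 2). Without sudachitin replicate 1 the log2 difference was 0.30. The coactivator gene Crtc2 had 17.2 and 22.5 against 27.2 and 28.7 CPM and held, at 0.50 and 0.31. G6pc, the glucose-6-phosphatase, overlapped, with 290 and 520 against 502 and 294 CPM. Of 27 genes of glucose use and glycogen, 2 were higher and 12 lower without overlap (15.5% of all tested transcripts were lower), 11 of the 12 held (12.3% of all), and the median log2 difference was -0.18 against both controls and against control replicate 2. Ppp1r3g, a glycogen-targeting phosphatase subunit that is raised in fasting, was among the higher, at 0.558 and 0.141 against 4.03 and 1.94 CPM (log2 3.0, SE 0.64, adjusted p = 0.51, 4.33 against control replicate 2). Its counts were few. Another such subunit gene, Ppp1r3c, had 113 and 99.5 against 52.4 and 87.0 CPM, and Ugp2, which makes UDP-glucose, had 480 and 503 against 407 and 387 CPM. Both held, at -0.51 and -0.34 against control replicate 2.

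Growth hormone acts through STAT5, and of 16 tested genes of that axis 9 were higher and 1 lower without overlap (15.3% and 15.5% of all tested transcripts). Of the 9, 8 held against control replicate 2 (12.9% of all). Their median was 0.31 on the log2 scale, and 0.17 against control replicate 2. Socs2, a STAT5 target and feedback inhibitor, had 5.69 and 3.51 against 26.2 and 27.2 CPM (log2 2.52, SE 0.79, adjusted p = 0.71). Onecut1, a transcription factor, had 8.59 and 14.8 against 78.7 and 66.1 CPM (log2 2.64, SE 0.86, adjusted p = 0.71). Against control replicate 2 these came to 2.92 and 2.29. Cish, another such inhibitor, had 4.35 and 4 against 37.5 and 9.04 CPM (log2 2.47, 2.54 against control replicate 2, 1.11 without sudachitin replicate 1). Bcl6, a repressor that STAT5 lowers, had 56.6 and 38.3 against 15 and 23.4 CPM (log2 -1.31, -0.99 against control replicate 2). These genes also varied widely between mice of one group at ZT6, where Socs2 had 26.7 and 9.61 CPM in control livers and 1.35 and 12.9 in sudachitin livers, and Onecut1 had 55.0 and 14.6 against 4.79 and 39.0 CPM. Igfals, the acid-labile subunit, was steadier, with 76.9 and 83 against 105 and 119 CPM (log2 0.49, 0.43 against control replicate 2). Igf1 had 148 and 218 against 266 and 238 CPM and did not hold, at 0.46 and 0.21. Ghr and Stat5b had overlapping groups, with log2 differences of 0.05 and 0.03. Socs2, Socs3 and Igfbp1 are members of this list and of the insulin list. Igfbp1 is also counted among the genes of glucose production, and Socs3 among those of the acute phase.

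Of 18 tested glucocorticoid targets and metallothioneins, 9 were higher and 1 lower without overlap (15.3% and 15.5% of all tested transcripts), and 7 of the 9 held (12.9% of all). Over these genes the log2 differences had a median of 0.30, and of 0.50 against control replicate 2. Klf9 had 61.9 and 56.8 against 96.5 and 95.9 CPM (log2 0.70, SE 0.17, adjusted p = 0.56, 0.76 against control replicate 2). Angptl4, an inhibitor of lipoprotein lipase, had 81.4 and 51.9 against 166 and 106 CPM (log2 1.02, 1.39 against control replicate 2, edgeR adjusted p = 0.63, DESeq2 adjusted p = 0.024). Errfi1, a feedback inhibitor of the EGF receptor, had 235 and 291 against 971 and 436 CPM (log2 1.42, 1.27 against control replicate 2, 0.73 without sudachitin replicate 1). Zbtb16, a zinc finger transcription factor, had 9.99 and 6.89 against 28.3 and 19.8 CPM (log2 1.5, 1.80 against control replicate 2). Fkbp5, a classical target, overlapped at 36.0 and 22.5 against 33.5 and 31.4 CPM, as did Mt1 and Mt2, the metallothioneins, with log2 differences of -0.18 and -0.12 that came to 0.85 and 0.89 against control replicate 2.

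The core clock runs on BMAL1 and CLOCK, which drive Per, Cry and Rev-erb genes that feed back on them. Of 19 tested clock genes, 4 were higher and 2 lower without overlap, and these 6 held against control replicate 2. The shares lie near those among all tested transcripts, 15.3% higher and 15.5% lower. There 12.9% were higher and held, and 12.3% were lower and held. The median log2 difference was 0.06. Per1, a glucocorticoid target as well, had 12.2 and 8.71 against 15.4 and 17.1 CPM (log2 0.63, 0.90 against control replicate 2, adjusted p = 0.71). Nr1d2, which encodes REV-ERB beta, had 23.0 and 26.3 against 33.8 and 32.9 CPM (log2 0.44, 0.34 against control replicate 2). Npas2, a CLOCK paralogue, had 5.19 and 2.11 against 0.830 and 0.822 CPM (log2 -2.15, SE 0.54, adjusted p = 0.59, -1.34 against control replicate 2). Arntl, which encodes BMAL1, overlapped at 19.3 and 18 against 15.4 and 21.3 CPM, as did Nr1d1 and Per2. Clock had 44.4 and 45.7 against 46.0 and 57.1 CPM, and Cry1 had 45.1 and 46.3 against 40.9 and 39.0 CPM, with log2 differences of 0.20 and -0.19.

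The liver makes the plasma proteins of inflammation, complement and clotting. Of 27 acute phase genes, 12 were higher and 1 lower without overlap (15.3% and 15.5% of all tested transcripts), and 11 of the 12 held (12.9% of all), with a median log2 difference of 0.30 and of 0.47 against control replicate 2. Il1r1, the interleukin-1 receptor, had 16.7 and 20.2 against 34.6 and 33.9 CPM (log2 0.90, SE 0.17, adjusted p = 0.39, DESeq2 adjusted p = 0.025, 0.77 against control replicate 2). Fgg, the fibrinogen gamma chain, had 1967 and 1973 against 3222 and 2530 CPM, and Itih3, an inhibitor heavy chain, had 412 and 586 against 822 and 817 CPM. They gave 0.54 and 0.48 against control replicate 2. Saa1, Lcn2 and Orm2, which inflammation strongly induces, did not separate the groups. Saa1 had 93.5 and 18.9 against 153 and 42.5 CPM, Lcn2 29.0 and 4.78 against 21.6 and 4.46 CPM, and Orm2 26.7 and 5.76 against 10.6 and 7.63 CPM. In these 3 genes control replicate 1 lay far above control replicate 2. Of 29 complement and coagulation genes, 16 were higher and 0 lower without overlap, and 11 of the 16 held, beside 15.3% and 12.9% of all tested transcripts. The median was 0.19, and 0.16 against control replicate 2. For 20 of the 29 control replicate 1 was the lowest of the 4 livers (31.1% of all tested transcripts). C8a, a subunit of the membrane attack complex that is also male-biased, had 206 and 385 against 611 and 617 CPM (log2 1.06, 0.67 against control replicate 2, edgeR adjusted p = 0.60, DESeq2 adjusted p = 0.0083). C3, the central component of complement, had 3387 and 3164 against 4526 and 4239 CPM (log2 0.42, 0.47 against control replicate 2).

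The differences in 2 large families were small. Of 72 genes of oxidative phosphorylation, 0 were higher and 25 lower without overlap (15.5% of all tested transcripts were lower), and 20 of the 25 held (12.3% of all). Their median log2 difference was -0.10, and -0.07 against control replicate 2, and none had an unadjusted p under 0.05 in edgeR (6.51% of all). For 42 of the 72 control replicate 1 was the highest of the 4 livers (32.2% of all tested transcripts). Of 75 cytosolic ribosomal protein genes 16 were higher without overlap and 13 of them held, shares near the 15.3% and 12.9% of all tested transcripts. However, 0 were lower without overlap, where 15.5% of all tested transcripts were. A log2 difference above 0 was seen for 66 of the 75 (7195 of all 14506 tested), and for 54 against control replicate 2. The median was 0.09, which came to 0.03 against control replicate 2. Control replicate 1 was the lowest of the 4 livers for 43 of these 75, as it was for 31.1% of all tested transcripts.

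In other gene groups much of the difference rested on control replicate 1. Of 33 genes higher in male than in female liver, 15 were higher without overlap (15.3% of all tested transcripts), but only 6 of these held (12.9% of all). The median log2 difference of 1.06 came to 0.25 against control replicate 2 alone. Control replicate 1 was the lowest of the 4 livers for all 33 (31.1% of all tested transcripts), and the lowest of all 8 for 28. Slco1a1, an organic anion transporter, had 26.7 CPM there, 378 CPM in control replicate 2 and 380 and 464 CPM in the sudachitin livers. The steroid dehydrogenase gene Hsd3b5 had 0.837 and 86.4 against 79.2 and 171 CPM. Of 18 tested female-biased genes, 2 were higher and 10 lower without overlap (15.3% and 15.5% of all tested transcripts), and both of the 2 but only 4 of the 10 held (12.9% and 12.3% of all). Both sudachitin livers lay below control replicate 2 for 12 of the 18 (30.5% of all) and above it for 5 (31.3% of all). The median of these genes, -1.17, came to -0.56 against control replicate 2. Cyp2b9, a cytochrome P450, had 309 and 5.34 against 1.96 and 0.352 CPM, and Cyp2a4 had 50.4 and 1.05 against 2.19 and 1.29 CPM. Slco1a1 and Cyp2b9 did not hold, and the groups overlapped for Hsd3b5 and Cyp2a4. The log2 difference of Cyp2b9 was -7.09, and -2.21 against control replicate 2, with both sudachitin livers below that library. The labels give all mice as male.

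Of 25 tested NRF2 targets and antioxidant genes, 0 were higher and 11 lower without overlap (15.5% of all tested transcripts were lower), and only 4 of these held, near the 12.3% of all. The median of -0.51 came to -0.07 against control replicate 2, and control replicate 1 was the highest liver for 19 of them (32.2% of all tested transcripts). The glutathione transferase gene Gstm3 had 129 and 21.9 against 21.7 and 17.3 CPM, Nqo1 had 15.6 and 4.99 against 4.44 and 4.4 CPM, and Srxn1 had 59.4 and 31.0 against 27.0 and 22.5 CPM. None of these 3 held. Nfe2l2 itself held, as given above.

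The medians of fatty acid oxidation and of lipid storage changed sign without control replicate 1. For 37 genes of oxidation and ketogenesis the median log2 difference was -0.18 against both controls and 0.12 against control replicate 2. Control replicate 1 was the highest liver for 31 of them (32.2% of all tested transcripts). Cpt1a, which admits fatty acids to mitochondria, had 535 and 299 against 385 and 384 CPM. For 22 genes of lipid droplets and uptake the median was -0.19 and 0.13. The fatty acid transporter gene Cd36 had 262 and 60.2 against 81.3 and 26.0 CPM, and the droplet gene Cidec had 88.7 and 9.20 against 21.1 and 4.23 CPM. The median of 25 cell cycle genes was -1.05 and came to 0.02, with Ccnd1, a G1 cyclin, at 39.1 and 13.8 against 9.78 and 11.6 CPM, which did not hold (-1.32 and -0.37).

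**Figure D4:**
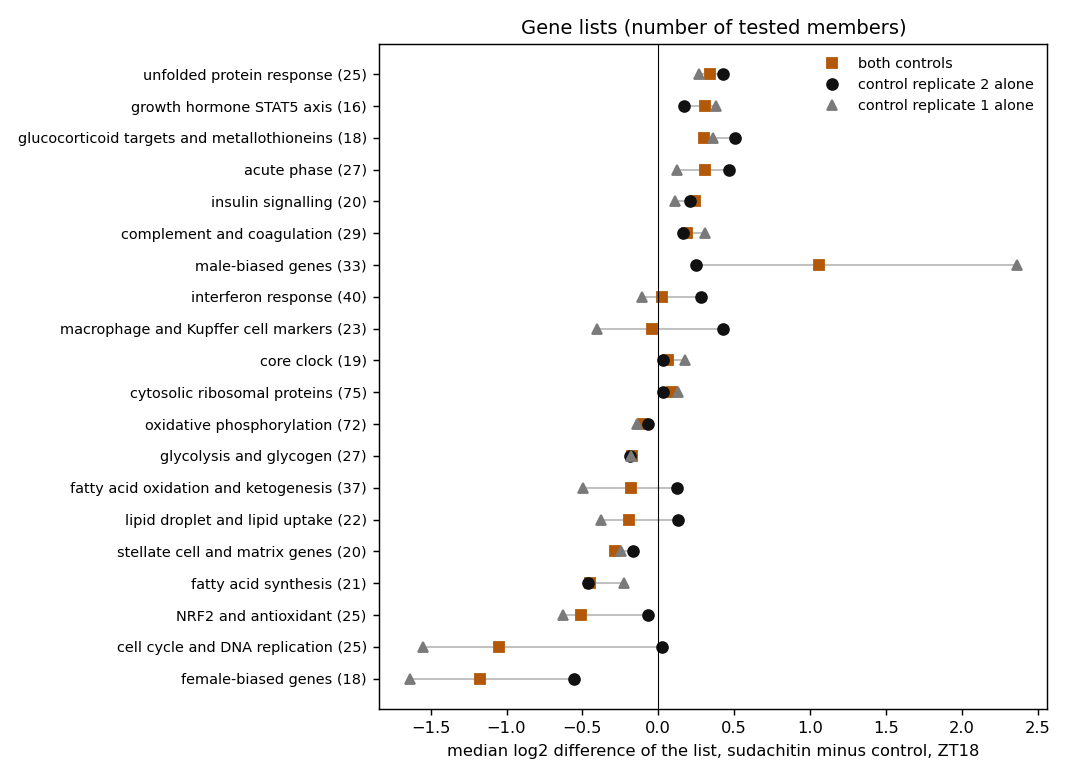
The median log2 difference of 20 gene lists is shown against both controls (squares), control replicate 2 alone (circles) and control replicate 1 alone (triangles), with the number of tested members beside each name. The marks lie close together for the unfolded protein response and for glucose use and glycogen, and far apart for sex-biased genes and the cell cycle.

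Markers of other cell types were compared because their share could differ between livers. Summed levels of 25 macrophage and Kupffer cell markers were 456 and 258 CPM in control and 363 and 320 CPM in sudachitin livers, so control replicate 1 was highest and control replicate 2 lowest. The median log2 difference of the 23 tested was -0.04 with both controls and 0.42 against control replicate 2. For the acute phase genes these medians were 0.30 and 0.47. The part of macrophages in the acute phase values was not tested. Stellate cell and matrix genes summed to 568 and 432 against 412 and 335 CPM, with 7 of 20 lower and 0 higher without overlap (15.5% of all tested transcripts were lower). Only 3 of the 7 held (12.3% of all), and the median of -0.29 came to -0.17 against control replicate 2. Col1a1 and Col3a1, the fibrillar collagens, had 26.3 and 12.6 against 10.6 and 5.99 CPM and 65.5 and 34.2 against 32.2 and 17.1 CPM, and neither held. T and NK cell markers summed to 5.23 and 5.75 against 5.09 and 9.22 CPM, with Ncr1 at 0 in all 4 livers. Neutrophil markers summed to between 3.15 and 3.39 CPM, and erythroid genes to 525 and 340 against 287 and 364 CPM. Of 14 endothelial markers, 6 were lower and 0 higher without overlap (15.5% of all tested transcripts were lower), and 5 of the 6 held (12.3% of all). The endothelial median of -0.17 came to -0.03 against control replicate 2.

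Whether these differences were those of ZT18 was tested as the difference between the treatment effects at both times. With edgeR 0 transcripts passed (0.0%), 548 had an unadjusted p under 0.05 (3.78%), and the smallest adjusted p was 0.62. DESeq2 called 12, all with a higher log2 difference at ZT18 than at ZT6. They included Smad9, a receptor-regulated SMAD, with 1.79 and 5.76 against 13.5 and 12.0 CPM at ZT18 and 8.56 and 6.34 against 2.77 and 2.86 CPM at ZT6. Etfbkmt, a methyltransferase of the electron transfer flavoprotein, had 16.3 and 14.5 against 37.8 and 32.3 CPM at ZT18 and 25.4 and 34.6 against 20.8 and 13.2 CPM at ZT6. For both, every sudachitin liver was above the controls at ZT18 and below them at ZT6, and both held at ZT18 (1.15 and 1.28 against control replicate 2). Mcm10, Keg1, Rapgef4, Irs2, Angptl4 and Xbp1 were also among the 12. Irs2 at ZT6 had 16.6 and 18.4 against 12.9 and 14.0 CPM, and the difference between times was 1.48 (SE 0.30, edgeR adjusted p = 0.97, DESeq2 adjusted p = 0.044). Xbp1 had 156 and 171 against 121 and 139 CPM at ZT6, and its difference between times was 0.95 (SE 0.18, edgeR adjusted p = 0.88, DESeq2 adjusted p = 0.047).

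For the whole lists, the median log2 difference at ZT6 was -0.23 for the unfolded protein response and -0.29 for fatty acid synthesis, beside 0.34 and -0.45 at ZT18. These lists were not tested between the times as sets. Srebf1 had 287 and 488 against 552 and 321 CPM at ZT6, with overlapping groups. The acute phase median was 0.48 at ZT6, where Saa1 had 21.9 and 18.3 CPM in control and 599 and 306 CPM in sudachitin livers.

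**Figure D5:**
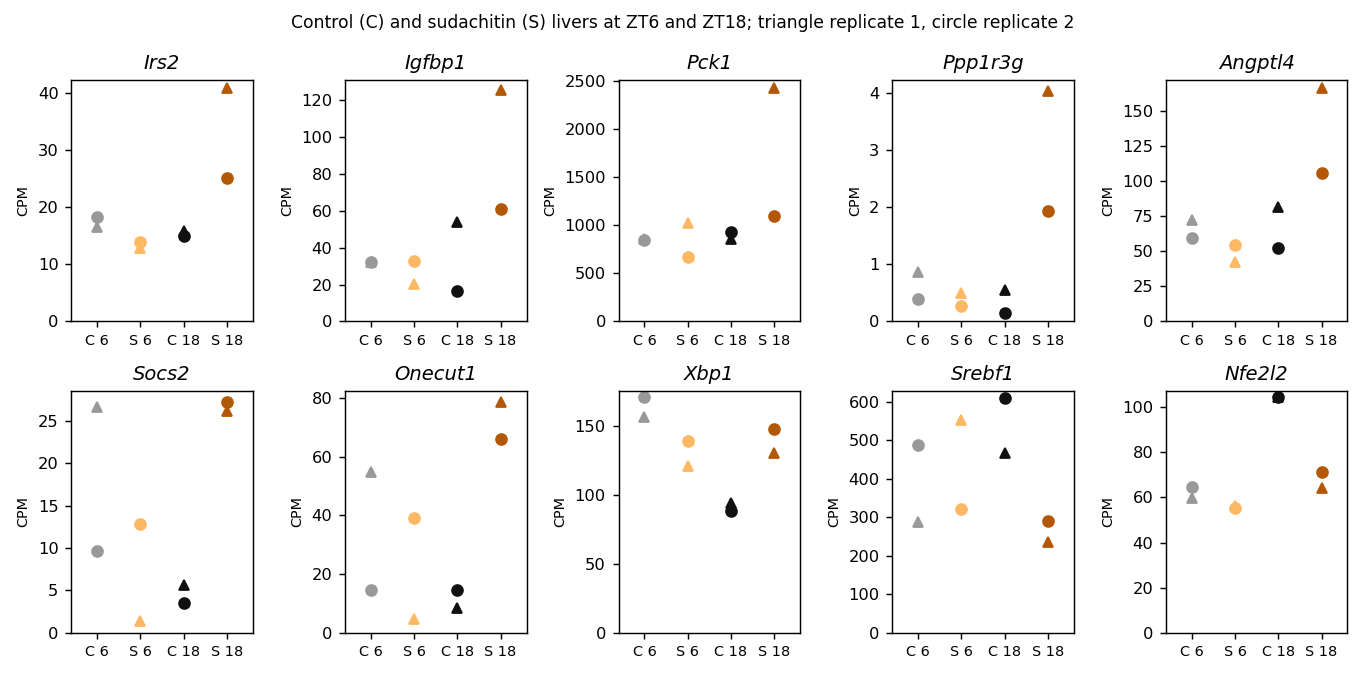
Levels in CPM of 10 genes in control (C) and sudachitin (S) livers at ZT6 and ZT18, each mark being 1 mouse. At ZT18 both sudachitin livers lie above both controls for the first 8 genes and below both for Srebf1 and Nfe2l2, and at ZT6 Socs2 and Onecut1 spread widely within each group.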

How the data were processed

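Poly(A)-selected, unstranded liver libraries were made from 2 µg of RNA with an integrity number above 9.0 and read as 150-base pairs, per the labels' protocols. Trimmomatic 0.39, STAR 2.7.2a, HOMER and the builds GRCm38 and mm10 are named in the submitters' processing notes, without their roles. The authors deposited estimated counts in exons, in steps of 0.5, and FPKM computed from them, per the file headers and values. Strand use in counting and the treatment of reads with several positions are not given in the sources used here, so overlapping or near-identical genes are uncertain. They include Mid1ip1 and Ccnd1, whose exons share 543 and 818 bases with genes on the other strand.

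Counts were rounded to whole numbers and fitted in R 4.3.3 with edgeR 4.0.16 (filterByExpr, TMM factors from 0.966 to 1.016, 4 group means over 8 libraries). CPM of single genes use these factors, and summed CPM of gene lists are scaled by total counts alone. DESeq2 1.42.0, limma 3.58.1 on log2(FPKM + 0.1) or log2(FPKM + 1), other scalings and filters, a replicate block and leaving out each library were alternatives. The fit was tested on simulated data. Exon counts were 13914116 to 17759630.5 per library. No libraries were duplicates.

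The libraries compared and the 50 gene lists were chosen with earlier results of these data known. Named genes are those past the threshold, the 10 in each direction with the smallest p among genes of at least 5 CPM without overlap, with both controls and without control replicate 1, up to 3 members per list, and the clock genes. A further 52 genes were named after their values were seen, 48 of them list members and 4 in no list (Etfbkmt, Pdia5, Dusp6 and Smad9). Some genes are not reported here.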

Additional observations from a re-analysis of the deposited data

Results flagged for a closer look

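Out of the 50 gene lists, 2 were picked because their mean log2 levels moved in opposite directions at the 2 times, without overlap between sudachitin and control livers at either time. Since this pattern was the rule of choice, it is no evidence of a reversal. How many of 50 lists would show it by chance was not worked out. For insulin signalling the mean level was 0.37 higher in sudachitin livers at ZT18, with controls at 4.53 and 4.15 and sudachitin livers at 4.76 and 4.66. At ZT6 the difference was -0.14. Against control replicate 2 alone the ZT18 difference was 0.56. For the aryl hydrocarbon receptor list the difference was -0.19 at ZT18, with controls at 4.60 and 4.57 and sudachitin livers at 4.41 and 4.38, and 0.20 at ZT6. It was -0.17 against control replicate 2 alone. In neither list was the difference between the times tested.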

How the results depend on the processing

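The count of transcripts past the threshold at ZT18, 2 in the test reported, was 46 with DESeq2, 488 with no filter on low counts, and 0 without the ribosomal DNA unit transcripts, with only the ZT18 libraries, and with limma at either pseudocount. It ranged from 0 to 175 when one library was left out. Both calls were lost without either control ZT6 liver or either sudachitin ZT18 liver, where the smallest adjusted p was 0.087 to 0.16. With the replicate number as a block it was 0 (smallest adjusted p = 0.058). Same-numbered ZT18 livers deviated together (r = 0.28 across genes, which are not independent), but other group pairs gave -0.20 to 0.11, so the numbers were not taken as a pairing. The count for the difference between times, 0 as reported, was 12 with DESeq2, 259 with no filter, and 0 to 13 when one library was left out. It could not be fitted on the ZT18 libraries alone. Of the named genes, none of these past the threshold as reported, the log2 difference changed sign when one library was left out for the following, with ranges of -0.28 to 0.19 for Arntl, -0.027 to 0.39 for Atf4, -0.069 to 0.11 for Atf6, -3.54 to 0.46 for Cidec, -0.47 to 0.36 for Cpt1a, -4.85 to 0.72 for Cyp2a4, -0.31 to 0.38 for Dnajb9, -0.13 to 0.52 for Ern1, -0.15 to 0.53 for Fkbp5, -0.47 to 0.46 for G6pc, -0.046 to 0.15 for Ghr, -1.94 to 1.44 for Lcn2, -0.43 to 1.23 for Mlxipl, -1.59 to 0.85 for Mt1, -1.52 to 0.89 for Mt2, -0.045 to 0.58 for Nr1d1, -1.55 to 0.66 for Orm2, -0.55 to 0.48 for Per2, -0.54 to 0.29 for Pklr, -0.41 to 2.37 for Saa1 and -0.35 to 0.31 for Trib3. With limma at pseudocounts of 0.1 and 1 the sign changed for Atf6 (-0.037 and -0.031), Ghr (-0.012 and -0.012) and Stat5b (-0.030 and -0.026). The causes were not tested.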
